A study of Pyrus pyrifolia with 2 samples.

Results

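Tandem neighbours of matching structure were examined in wounds made in fruit of Pyrus pyrifolia, the sand pear (cultivar Nakai."Shuijing"). Of 42341 annotated genes, 769 lay in 359 runs of consecutive genes on the same strand. Within a run, neighbours had the same number of exons (at least 2), coding lengths that differed by at most 3% and a gap of at most 50 kb. The rule uses structure and position, and no expression value. The neighbours are called copies here for their matching structure and position alone. No sequence was compared, so a shared origin was not shown. Runs, gaps and copy numbers are those of the deposited coordinates, and whether the sampled fruit carries every copy was not tested.

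The yeast-treated library came from wounds that had received 30 μL of Wickerhamomyces anomalus, a yeast used against fruit decay, in suspension. The water-treated library came from wounds given 30 μL of sterilized water. Both were taken after 3 days at 28 °C and 95% relative humidity, and each treatment had 1 library. How many fruits went into a library is not given in the sources used here. Without replicates there is no spread to test against, so no p-value is given, and each ratio sets a single library against a single library. The yeast-treated library held about 16753518 read pairs by estimate, against 19367039 for the water-treated library. The files pair no identifier with a product, so neither the tissue nor the function of any gene could be checked, and genes are given by position on the deposited coordinates.

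Tandem duplicates arise in plants mainly by unequal crossing over between neighbouring sequences, and they often belong to families of defence, detoxification and secondary metabolism. After duplication, copies can stay active together, diverge in level or timing, or fall silent. The pear lineage also carries an older duplication of the whole genome, which left related segments on different chromosomes. Copies that are nearly identical share sequencing reads. How reads that fit several copies were assigned is not given in the sources used here, so the division of signal within a run is uncertain wherever copies are alike.

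Most runs were short. There were 318 runs of 2 copies, 34 of 3, 5 of 4, 1 of 5 and 1 of 6, joined by 410 links. The gap between linked copies had a median of 5261 bases and ranged from 36 to 48792 bases, and no linked genes overlapped. Of the 410 links, 125 (30.5%) joined genes of exactly the same coding length. The full span of the gene, introns included, was not used in the choice, and it differed by at most 10% in 231 links (56.3%).

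Matching structure was more frequent between neighbours on the same strand. Among neighbouring multi-exon genes with a gap of up to 50 kb, 410 of 11558 same-strand pairs matched (3.55%), against 128 of 10335 opposite-strand pairs (1.24%). The same order held at each exon number from 2 to 8, with 5.61% against 1.46% at 2 exons and 3.77% against 1.38% at 8 exons. The opposite-strand share shows how many matches the limits find where tandem order is absent. Some of those matches may themselves be inverted duplicates, which was not tested, so the share cannot be read as a background rate of unrelated genes. The matching opposite-strand pairs also lay further apart, with a median gap of 25323.5 bases, against 5261 bases for linked copies.

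Genes of 2 exons made up 252 of the 769 members and genes of 3 exons 139, while 53 had 9 or more exons, up to 20. Members were spread over all 17 chromosomes. Their share of the annotated genes was highest on chromosome 8 (45 of 1544, 2.91%) and chromosome 13 (47 of 1660, 2.83%), and lowest on chromosome 6 (25 of 2043, 1.22%). On unplaced scaffolds 91 members were found, 1.26% of the genes there, against 1.93% on chromosomes.

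Expression was measured as FPKM (fragments per kilobase of transcript, corrected for sequencing depth) of each gene's annotated transcript, and genes with an average of 1 FPKM or more across the libraries were called measured. Of the 769 members, 301 (39.1%) were measured, 201 were above 0 in a library but below that limit, and 267 (34.7%) were listed at 0 in both, against 34.5% of multi-exon genes outside runs and 38.5% of all annotated genes. Outside runs, 10223 of 29640 multi-exon genes (34.5%) were measured. That order did not hold when assembled transcripts of the same locus were added to the annotated one. By this locus sum 345 members (44.9%) and 16270 genes outside runs (54.9%) were measured. Loci of members held an assembled transcript less often, in 119 of 769 cases (15.5%), against 27.9% outside runs. Measured members had a median level of 9.52 FPKM, against 8.38 FPKM for all 13622 annotated genes measured.

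In 76 of 359 runs every copy was listed at 0 in both libraries, and in 163 no copy was measured. Every copy was measured in 87 runs, and 109 runs mixed measured copies with others below the limit. Among the 41 runs of 3 or more copies, 16 had no measured copy, 9 had 1, 7 had 2 and 9 had 3, and no run had more than 3 measured copies.

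By the annotated transcript, a single copy carried most of the signal of a run. Over the 196 runs with a measured copy, the most abundant copy took a median of 91.1% of the summed FPKM in yeast-treated wounds and 91.7% in water-treated wounds. It took at least 90% in 101 runs in yeast-treated wounds and in 107 runs in water-treated wounds. The same copy led in both libraries in 185 of the 196 runs, and its share moved by a median of 1.35 percentage points. In 5 runs it moved by 20 points or more. In 100 of the 196 runs exactly 1 copy was measured, which favours a high share for the leading copy. The leading copy of a pair also cannot hold less than an equal part. The share was not computed for same-strand neighbours that did not match in structure. Those were at least 4-fold apart more often than linked copies (63.7% against 49.5%, as given below).

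The 5 most abundant runs show this order of copies. On chromosome 13, the copy at 9009864 to 9010507 (plus strand, coding length 480 bases) was at 3146 FPKM in yeast-treated wounds and 2891 FPKM in water-treated wounds. The next copy, at 9041862 to 9042579, was at 14.3 and 15.6 FPKM in yeast-treated and water-treated wounds, and the last, at 9043719 to 9044311, was at 2.38 and 1.32 FPKM. The first copy thus held 99.5% of the run's signal in yeast-treated wounds and 99.4% in water-treated wounds. A second run on chromosome 13 (minus strand, 9276206 to 9294784) had its leading copy, also of 480 bases, at 1698 FPKM in yeast-treated wounds and 1515 FPKM in water-treated wounds. Its other copies, of 492 and 483 bases, were at 0.917 and 2.51 FPKM in yeast-treated wounds and at 1.62 and 1.06 FPKM in water-treated wounds.

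On chromosome 9, a gene at 3288551 to 3289673 (plus strand, 759 bases) was at 2985 FPKM in yeast-treated wounds and 2280 FPKM in water-treated wounds. Its neighbour of 747 bases, 2431 bases further along, was listed at 0 in both. The run on chromosome 1 (plus strand, 8223604 to 8236931) holds 3 copies of 1107 bases, and all of them were well expressed. They were at 125.8, 33.0 and 1389 FPKM in yeast-treated wounds, against 105.8, 26.9 and 1259 FPKM in water-treated wounds. On chromosome 16 (minus strand), the copy at 4579722 to 4580372 was at 1469 FPKM in yeast-treated wounds and 1152 FPKM in water-treated wounds. Its upstream neighbour at 4585820 to 4586826 was at 32.4 FPKM in yeast-treated wounds and 25.5 FPKM in water-treated wounds. All 5 runs consist of 2-exon genes, and in all 5 the leading copy was higher in yeast-treated wounds, by 1.09-fold (95% counting interval 1.07 to 1.11) to 1.31-fold (1.29 to 1.33). These exact intervals rest on estimated read pairs and cover counting error only, not the spread between fruits. Fold values are ratios of FPKM with nothing added.

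**Figure D1:**
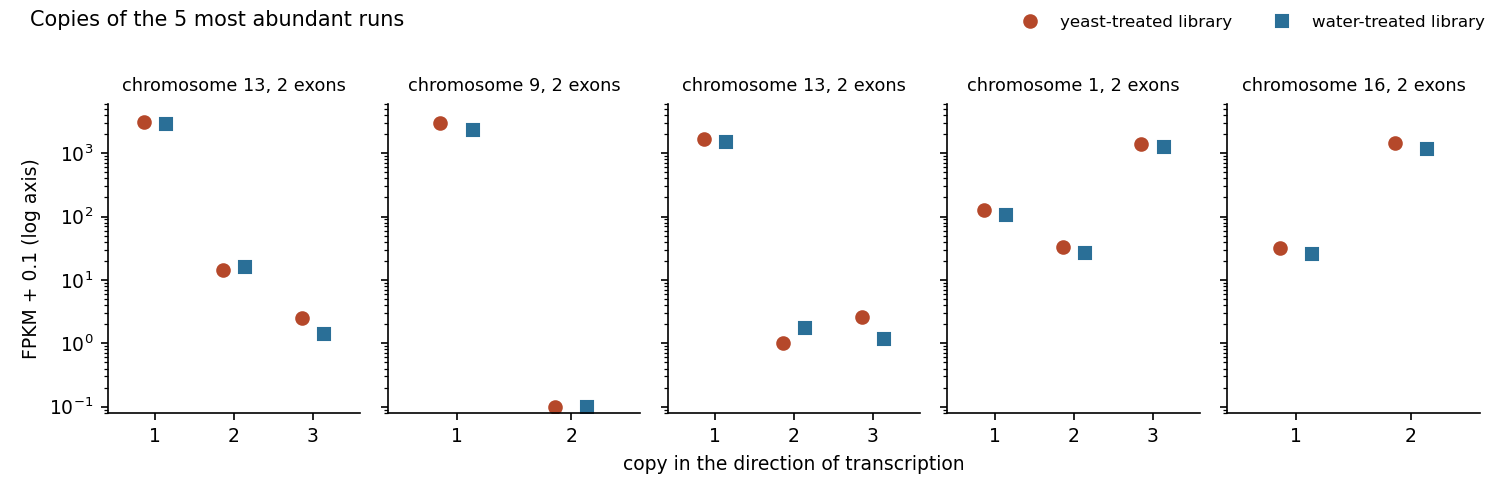
FPKM + 0.1 (log axis) of every copy in the 5 runs with the highest summed FPKM, in the direction of transcription, with the yeast-treated library as circles and the water-treated library as squares (1 library each). In 4 of the 5 runs 1 copy held over 97% of the signal in both libraries, and in the run on chromosome 1 the last copy held 89.7% in yeast-treated wounds and 90.5% in water-treated wounds.

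Linked copies were compared by the absolute difference of log2(FPKM + 1), averaged over both libraries, for the 220 pairs in which at least 1 copy was measured. The median difference was 1.98, and 109 pairs (49.5%) were at least 4-fold apart on this scale. Among same-strand neighbours that did not match in structure, the median was 2.76 over 6066 pairs and 63.7% were at least 4-fold apart. Opposite-strand neighbours of matching structure had a median of 1.58 over 53 pairs, with 24 pairs (45.3%) at least 4-fold apart. Linked copies were within 2-fold of each other in 47 of 220 pairs (21.4%), against 12.2% of same-strand pairs that did not match and 45.3% of matching opposite-strand pairs.

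With the locus sum, and without pairs whose genes share an assembled transcript, the share at least 4-fold apart was 52.6% of 211 linked pairs and 62.0% of 8107 same-strand pairs that did not match. It was 31.7% of 63 matching opposite-strand pairs. With the sharing pairs kept, it was 47.7% of 239 linked pairs and 60.3% of 8345 same-strand pairs that did not match. Both genes were measured in 101 of the 220 linked pairs (45.9%), against 25.1% of the pairs that did not match. That gap was smaller by the locus sum, at 53.6% against 44.6% with all pairs. Without pairs that share an assembled transcript it was 47.4% against 43.0%. All 28 linked pairs that share one had both genes measured by the locus sum, so leaving them out lowers the linked share. For matching opposite-strand pairs the share was 56.6% of 53 pairs, and 76.2% of 63 by the locus sum. Where both genes were measured, the median difference was 1.73 in linked pairs and 1.65 in same-strand pairs that did not match. Those classes lay close together there. Matching opposite-strand pairs had a median of 0.41 over 30 pairs, and 26.7% were at least 4-fold apart, against 42.6% of linked pairs. Pairs are not replicates, since pairs in a run share genes, and no test was run on these shares.

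**Figure D2:**
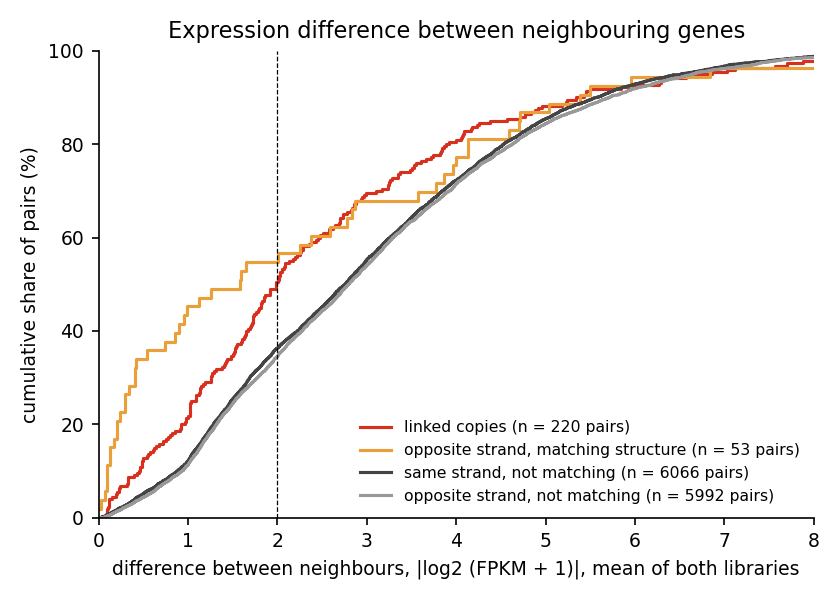
Cumulative share of neighbouring pairs (%) by the absolute difference of log2(FPKM + 1) between the genes, averaged over both libraries, for pairs with at least 1 measured gene. At the dashed line, a difference of 2 (4-fold), 49.5% of linked copies lie to the right, against 45.3% of matching opposite-strand pairs, 63.7% of same-strand pairs that do not match and 65.5% of opposite-strand pairs that do not match.

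Copies of equal length were closer in level. Of the 74 pairs with the same coding length, 24 (32.4%) were at least 4-fold apart and the median difference was 1.57. Of the 146 pairs of unequal length, 85 (58.2%) were at least 4-fold apart and the median was 2.21. Around the limit of the rule, 21 of 33 pairs with a length difference of 2 to 3% were at least 4-fold apart, and so were 16 of 25 pairs just outside it, at 3 to 4%. Distance made little difference, with a median of 1.98 both for the 163 pairs up to 10 kb apart and for the 57 pairs further apart. Just inside the 50 kb limit, 5 links had a gap over 40 kb, and 2 matching pairs just outside it had a gap of 50 to 60 kb. The upstream copy was the higher one in 112 of 220 pairs (50.9%). Whether shared reads contribute to the closeness of equal-length copies was not tested.

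The pairs furthest apart combined an abundant gene with a neighbour at or near 0. The chromosome 9 pair given above headed this list, followed by the leading copy of the second chromosome 13 run and its 492-base neighbour. On chromosome 15, a 3-exon gene of 396 bases (plus strand, 15436912 to 15437834) was at 641.9 FPKM in yeast-treated wounds and 655.1 FPKM in water-treated wounds. Its upstream neighbour of 402 bases was listed at 0 in yeast-treated wounds and at 0.714 FPKM, about 5.56 read pairs, in water-treated wounds. Further along chromosome 15, a run of 3 small genes on the minus strand (41933378 to 41945900) had its last copy, of 228 bases, at 871.3 FPKM in yeast-treated wounds and 884.0 FPKM in water-treated wounds. The next copy, also of 228 bases, was at 0.471 and 1.16 FPKM in yeast-treated and water-treated wounds, and the copy of 225 bases was listed at 0 in both. The last pair of the list was on chromosome 1 (minus strand, 5 exons), with 411.2 FPKM in yeast-treated wounds and 389.4 FPKM in water-treated wounds for the gene at 8409951 to 8411817. Its neighbour 1007 bases away was listed at 0 in yeast-treated wounds and at 0.157 FPKM in water-treated wounds.

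Of the 7 runs of 4 or more copies, 1 had no measured copy, and the others mixed measured copies with copies below the limit for measured genes. The longest, 6 genes of 1362 to 1377 bases on chromosome 1 (plus strand, 6443891 to 6486713), had FPKM values of 0.957, 0.430, 2.66, 23.9, 0.0295 and 0 in yeast-treated wounds along the direction of transcription. In water-treated wounds they were 1.07, 1.04, 3.95, 29.5, 0 and 0. The copy at 23.9 FPKM held 85.5% of the signal in yeast-treated wounds and 83.0% in water-treated wounds. By the locus sum, the first copies were at 5.38 and 4.37 FPKM in yeast-treated wounds, against 6.95 and 5.36 FPKM in water-treated wounds. In the run of 5 genes with 7 exons on chromosome 13 (plus strand, 11421449 to 11467583), the first 3 copies were listed at 0 in both libraries. The last copies of that run were at 1.62 and 1.44 FPKM in yeast-treated wounds and at 1.71 and 1.10 FPKM in water-treated wounds.

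Among the runs of 4, the first copy on chromosome 15 (3353736 to 3435904, 4 genes of 1581 bases) was at 13.1 FPKM in yeast-treated wounds and 13.2 FPKM in water-treated wounds. The others there were at or below 0.244 FPKM in either library. On chromosome 8 (plus strand, 15974363 to 16011759), the last copy was at 9.01 FPKM in yeast-treated wounds and 16.0 FPKM in water-treated wounds, 1.78-fold lower (95% counting interval 1.48 to 2.14), while the other 3 were at or below 0.621 FPKM. The run on chromosome 5 (19556818 to 19591435, 4 genes of 660 bases) had 3 copies between 0.856 and 1.68 FPKM in either library and the remaining copy at 0 in yeast-treated wounds and 0.121 FPKM in water-treated wounds. The run on chromosome 9 (minus strand, 3081079 to 3121827) reached 2.64 FPKM in yeast-treated wounds and 2.20 FPKM in water-treated wounds. The run on chromosome 11 (minus strand, 2224098 to 2263540) stayed at or below 0.0641 FPKM. At 1 kilobase, 3 read pairs correspond to 0.179 FPKM in yeast-treated wounds and 0.155 FPKM in water-treated wounds, so the lowest of these values rest on a few pairs or fewer.

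Between the treatments most members differed little. In tissue RNA of this kind, fewer cells of a type and less RNA per cell cannot be told apart. Of the 301 measured members, 7 (2.33%) were at least 2-fold higher in yeast-treated wounds and 4 (1.33%) at least 2-fold lower, on the scale of log2((FPKM yeast + 1)/(FPKM water + 1)). The added 1 shrinks the ratios of genes with few fragments. Over all 13622 annotated genes measured, 1.64% were higher and 1.56% lower. By the locus sum, 6 of 345 members (1.74%) were higher and 1 (0.290%) lower, where 0.356% and 0.321% of 19953 genes were. The higher genes were the same in 5 cases, and the other was a copy on scaffold162.0. That copy and another of the higher genes are 705-base genes of that scaffold, whose reads may not be separable. They cannot be counted as separate observations. Loci of members also held an assembled transcript less often than those of all annotated genes (15.5% against 21.3%). How far this sets the locus-sum shares apart was not tested. Annotated transcripts held 50.7% of the covered bases in yeast-treated wounds and 51.4% in water-treated wounds, with the rest on assembled transcripts. The median log2 ratio of measured members was -0.001, against -0.02 for all annotated genes. Positive ratios were found for 150 measured members and negative ones for 151.

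**Figure D3:**
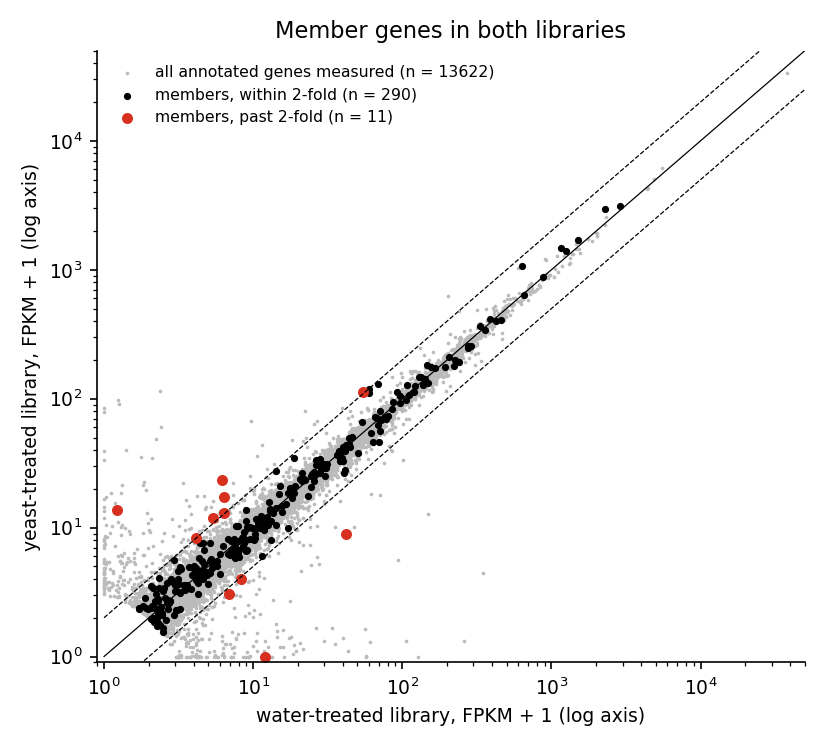
FPKM + 1 in yeast-treated wounds against the water-treated library (log axes) for measured member genes over all measured annotated genes in grey, with the diagonal solid and 2-fold lines dashed. Of 301 members, 290 lie between the dashed lines, 7 above and 4 below, and the gene with 0 in yeast-treated wounds stands on the lower edge.

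The highest log2 ratio among members with a mean FPKM of at least 5 was that of Pbr028826, a 3-exon gene on chromosome 13 (plus strand, 2079134 to 2079893, 522 bases). It was at 12.8 FPKM in yeast-treated wounds and 0.222 FPKM, about 2.24 read pairs, in water-treated wounds, which is 57.6-fold higher (95% counting interval 17.5 to 541). An assembled transcript of the same locus brought the sum to 19.2 FPKM in yeast-treated wounds and 12.8 FPKM in water-treated wounds, a log2 ratio of 0.55. Its upstream copy, 2639 bases away, was at 48.7 and 42.8 FPKM in yeast-treated and water-treated wounds. The large ratio of the annotated transcript was therefore not seen for the locus.

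The second, Pbr010153, had no assembled transcript, and its ratio is that of the whole locus. This 3-exon gene on chromosome 14 (plus strand, 12340155 to 12341687, 1221 bases) was at 22.3 FPKM in yeast-treated wounds and 5.16 FPKM in water-treated wounds, 4.32-fold higher (3.54 to 5.33). Its downstream copy of 1257 bases, 2584 bases away, was at 25.7 FPKM in yeast-treated wounds and 27.0 FPKM in water-treated wounds, a ratio of 0.952 (0.848 to 1.07). The copies were nearly level in yeast-treated wounds and 5.23-fold apart in water-treated wounds, and their log2 ratios differed by 1.99, the most among pairs with opposite signs and both copies at a mean FPKM of at least 5.

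A further 3 genes were at least 2-fold higher, and their copies were below the limit for measured genes or within 2-fold. On chromosome 15, a 3-exon gene (plus strand, 22229845 to 22231810) was at 16.4 FPKM in yeast-treated wounds and 5.34 FPKM in water-treated wounds, 3.08-fold higher (2.38 to 4.03), beside a copy at 0.150 FPKM in yeast-treated wounds and 0.0647 FPKM in water-treated wounds. That copy rests on about 3 read pairs in all, with a ratio of 2.31 (0.120 to 136), and shows no contrast within the pair. On chromosome 3, a 5-exon gene (plus strand, 18147921 to 18151946) was at 11.9 FPKM in yeast-treated wounds and 5.40 FPKM in water-treated wounds, 2.20-fold higher (1.81 to 2.68). Its next copy was at 3.45 FPKM in yeast-treated wounds and 4.13 FPKM in water-treated wounds. A 3-exon gene on chromosome 8 (plus strand, 3773787 to 3777803) was 2.35-fold higher (1.82 to 3.02), and with the assembled transcript that it shares with its upstream copy, the log2 ratio of 1.02 became 0.35.

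In other runs all copies had ratios above 1. On chromosome 15 (minus strand), a 2-exon gene of 1167 bases at 10401894 to 10403448 was at 10.9 FPKM in yeast-treated wounds and 4.42 FPKM in water-treated wounds, 2.47-fold higher (1.93 to 3.15). Its linked copy of 1173 bases, 11343 bases away, was at 1.47 FPKM in yeast-treated wounds and 0.474 FPKM in water-treated wounds, a ratio of 3.09 (1.48 to 6.76) at a level below the limit for measured genes. On chromosome 10 (minus strand), both copies of a 4-exon gene of 1113 bases were higher. They were at 33.5 and 4.65 FPKM in yeast-treated wounds, against 17.8 and 1.94 FPKM in water-treated wounds, ratios of 1.88-fold (1.66 to 2.14) and 2.39-fold (1.64 to 3.55). On scaffold719.0, 2-exon genes of 732 and 747 bases were at 3.79 and 1069 FPKM in yeast-treated wounds and at 2.30 and 634.3 FPKM in water-treated wounds, 1.65-fold (1.03 to 2.65) and 1.68-fold (1.64 to 1.73) higher. In each of these runs the copies kept their order while differing several-fold or more in level.

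The minus and plus strands of scaffold162.0 each carry a run of 3 genes of 705 bases with 2 exons, and 5 of the 6 genes were expressed. On the minus strand (280489 to 336293), the copies were at 110.3, 6.59 and 117.6 FPKM in yeast-treated wounds, against 58.9, 3.42 and 58.8 FPKM in water-treated wounds. Their ratios were 1.87-fold (1.71 to 2.05), 1.93-fold (1.32 to 2.82) and 2.00-fold (1.83 to 2.18). The last of them in position, at 335437 to 336293, had a locus sum of 158.0 FPKM in yeast-treated wounds and 77.2 FPKM in water-treated wounds. On the plus strand (475661 to 531834), the outer copies were at 111.0 and 129.5 FPKM in yeast-treated wounds and at 53.7 and 67.8 FPKM in water-treated wounds, 2.07-fold (1.88 to 2.26) and 1.91-fold (1.76 to 2.07) higher. The middle copy was listed at 0 in both. With equal coding lengths throughout, reads of these genes may not be separable, so their 5 similar ratios cannot be counted as 5 separate observations.

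Of the 4 lower genes, 1 was also at least 2-fold lower by the locus sum. Pbr035996, an 11-exon gene on chromosome 2 (plus strand, 16772840 to 16776299, 2406 bases), was listed at 0 in yeast-treated wounds and at 11.0 FPKM in water-treated wounds, about 510.3 read pairs. The locus sum was 12.2 FPKM in yeast-treated wounds and 15.7 FPKM in water-treated wounds. Pbr036508, a 7-exon gene on chromosome 8 (plus strand, 16290981 to 16294125, 1923 bases), was at 7.99 FPKM in yeast-treated wounds and 40.9 FPKM in water-treated wounds, 5.12-fold lower (4.49 to 5.87). With assembled transcripts, some of which extend over its upstream copy, the sum was 72.9 FPKM in yeast-treated wounds and 94.2 FPKM in water-treated wounds. The log2 ratio by the locus sum was -0.34 for Pbr035996 and -0.36 for Pbr036508.

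A 3-exon gene on chromosome 17 (minus strand, 22519695 to 22522243) was at 3.03 FPKM in yeast-treated wounds and 7.29 FPKM in water-treated wounds, 2.41-fold lower (1.82 to 3.20), with a log2 ratio of -0.35 by the locus sum. The lower gene that stayed past 2-fold by the locus sum has 4 exons and 747 bases and lies on chromosome 16 (minus strand, 3481203 to 3482690). It was at 2.04 FPKM in yeast-treated wounds and 5.91 FPKM in water-treated wounds, 2.89-fold lower (1.80 to 4.57). Its neighbour of 744 bases, 1195 bases away, was at 208.1 FPKM in yeast-treated wounds and 204.8 FPKM in water-treated wounds. A 2-exon gene on chromosome 2 (minus strand, 20655443 to 20656462) was at 7.07 FPKM in yeast-treated wounds and 12.1 FPKM in water-treated wounds, below 2-fold, with its copy at 174.7 FPKM in yeast-treated wounds and 193.4 FPKM in water-treated wounds. A 5-exon gene on chromosome 15 (plus strand, 40871047 to 40873346) was at 5.02 FPKM in yeast-treated wounds and 10.5 FPKM in water-treated wounds, and its locus sum was 11.8 FPKM in yeast-treated wounds and 10.5 FPKM in water-treated wounds.

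Linked copies had ratios of the same sign about as often as of opposite signs. Both copies were measured in 101 pairs, and their log2 ratios had the same sign in 51 (50.5%). The share was 54.0% among 1521 same-strand pairs that did not match, and 56.7% among 30 matching opposite-strand pairs. Of the measured members, 86.7% had an absolute log2 ratio of at most 0.5, so many of these signs belong to small ratios. Agreement of signs therefore says little about how far copies respond together. By the locus sum the share with the same sign was 60.9% of 128 linked pairs. It was 56.0% of the 100 linked pairs that share no assembled transcript, against 51.3% of 3488 same-strand pairs that did not match. Among matching opposite-strand pairs it was 68.8% of 48 by the locus sum. Of the 87 runs with every copy measured, all copies had a positive log2 ratio in 26 and a negative one in 18, and 43 were mixed. The higher copy was the same one in both libraries in 91 of the 101 pairs, and the other 10 exchanged places.

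**Figure D4:**
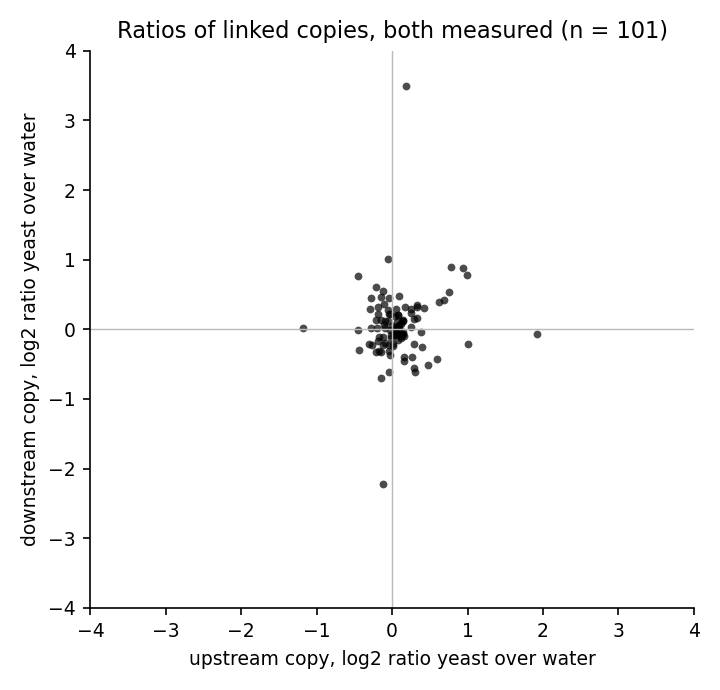
Log2 ratio of the yeast-treated over the water-treated library for the downstream copy against the upstream copy of 101 linked pairs with both copies measured (1 point a pair). Ratios of the same sign occur in 51 pairs, and the 3 points furthest from the centre lie close to an axis, with 1 copy at 3.50, -2.22 or 1.92 and the other near 0.

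Among pairs with both copies at a mean FPKM of at least 5, the log2 ratios of opposite sign that differed most after the chromosome 14 pair were 0.92 and 0.85 apart. Pairs with a weaker copy differed by up to 1.22, among them the chromosome 3 and 16 pairs given above. On chromosome 2 (plus strand), a 3-exon gene at 17056854 to 17058589 was at 25.4 FPKM in yeast-treated wounds and 20.3 FPKM in water-treated wounds, 1.25-fold higher (1.08 to 1.44). Its downstream copy, 5347 bases away, was at 44.9 FPKM in yeast-treated wounds and 69.3 FPKM in water-treated wounds, a ratio of 0.647 (0.590 to 0.710). On chromosome 6 (plus strand), copies of 243 bases at 20996001 and 21001330 exchanged places. They were at 31.6 and 26.9 FPKM in yeast-treated wounds, against 25.8 and 40.1 FPKM in water-treated wounds, and by the locus sum the second was higher in both libraries.

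Some runs had a counterpart elsewhere on the deposited coordinates, called so here for matching structure alone. How many such matches arise between unrelated runs was not estimated. Of the 359 runs, 69 fell into 33 sets in which the exon number and the ordered coding lengths were identical along the direction of transcription. This grouping was made after the values were seen. In 16 sets all runs were on the same chromosome or scaffold, and in 12 of these they were on opposite strands, as mirror images. Of 18 sets that consist of 2 runs, each with a measured copy, 16 had their most abundant copy at the same position. Only 10 of the 69 runs have 3 or more copies, so positions are few and some agreement arises from that alone. Runs with identical coding lengths may also share reads. How far either adds to the agreement was not tested.

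The chromosome 1 run of 1107-base genes had such a counterpart on chromosome 7 (plus strand, 13031715 to 13044434). There the copies were at 79.2, 4.02 and 180.9 FPKM in yeast-treated wounds and at 70.0, 3.01 and 144.8 FPKM in water-treated wounds. The order was last, first, middle in both runs, and all 6 copies had ratios above 1, between 1.10 and 1.34, with a counting interval that includes 1 for the chromosome 7 middle copy alone (0.944 to 1.89). Both chromosome 13 runs given above form a mirrored set led by the first copy. On chromosome 12, mirrored runs of 14-exon genes had their leading 1932-base copies at 27.5 and 67.1 FPKM in yeast-treated wounds, against 27.6 and 70.8 FPKM in water-treated wounds. The 1911-base copies were at 3.31 and 3.21 FPKM in yeast-treated wounds, against 3.04 and 3.12 FPKM in water-treated wounds.

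Counterparts could also differ between the treatments. The chromosome 3 run holding the higher 5-exon gene has a counterpart at 21915165 to 21934204, where the first copy was at 9.37 FPKM in yeast-treated wounds and 6.89 FPKM in water-treated wounds, 1.36-fold higher (1.13 to 1.65). The second copies had ratios of 0.836 (0.625 to 1.10) and 0.816 (0.656 to 1.01), and neither interval excludes 1. The third copies were at 0.0190 FPKM and 0 in yeast-treated wounds, against 0.0301 FPKM and 0 in water-treated wounds. The last copies of the run at 18147921 share an assembled transcript, which brought their locus sums to 10.6 and 7.14 FPKM in yeast-treated wounds and to 14.8 and 10.7 FPKM in water-treated wounds. The counterpart of Pbr036508 on chromosome 8 (minus strand, 16193420 to 16196564) was at 55.4 FPKM in yeast-treated wounds and 69.6 FPKM in water-treated wounds, a ratio of 0.797 (0.749 to 0.846). Its locus sum was 111.3 FPKM in yeast-treated wounds and 112.6 FPKM in water-treated wounds. Pbr036508 itself had a ratio of 0.195, and whether reads moved between these genes of equal length was not tested.

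**Figure D5:**
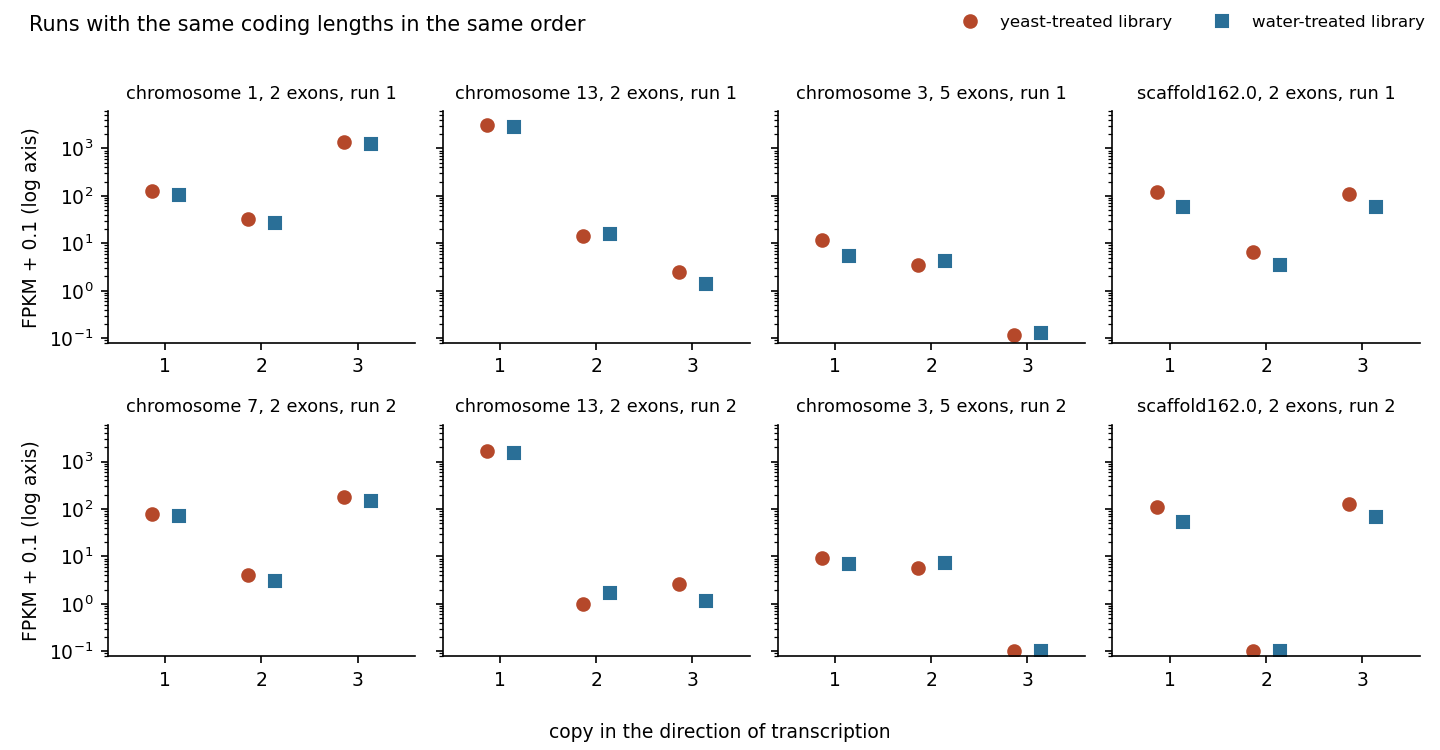
FPKM + 0.1 (log axis) of the copies in 4 sets of 3-copy runs with the same coding lengths in the same order (a set per column, copies in the direction of transcription), with the yeast-treated library as circles and the water-treated library as squares. The chromosome 1 and 7 runs share the order last, first, middle, both chromosome 13 runs are led by copy 1, and on scaffold162.0 the outer copies lie between 110.3 and 129.5 FPKM in yeast-treated wounds and between 53.7 and 67.8 FPKM in water-treated wounds.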

How the data were processed

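Each library has a transcript table. Per the file headers it gives FPKM, the mean coverage per base as a signal, position, exon number and length for 57919 transcripts, of which 42341 are annotated and 15578 assembled. Per the submitters' processing notes, HISAT2 and HTSeq 0.6.1 were used, in roles not stated there. Genome build, annotation release and strand use were not given in the sources used here. All annotated lengths are multiples of 3 and were taken as coding lengths.

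The deposited FPKM were not renormalized. Coverage divided by FPKM gave the depth, and read pairs were estimated as coverage times length over 300 bases, the most frequent covered length at transcripts under 1000 covered bases. Of those transcripts, 15.4% in the yeast-treated and 14.8% in the water-treated library lay within 0.5 bases of a whole multiple of 150 bases. Read pairs and the intervals built on them are therefore approximate. Exact (Clopper-Pearson) 95% intervals of ratios are conditional on the rounded sum of pairs and, as reads carry no molecular identifiers, cover counting error only. No count model was fitted. Gaps were counted between annotated spans, and a single-exon gene between broke a link.

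Genes named by rule were the runs with the most copies (ties included), the 5 with the highest summed FPKM, the 5 highest and 3 lowest by median log2 ratio among the 86 runs with every copy measured and at least 20 read pairs per copy, the 5 pairs furthest apart (higher copy at 20 FPKM or more), the 3 pairs with the most opposite ratios, and the 5 genes with the highest and lowest ratios. Others were chosen after their values were seen. Members and rules were chosen with earlier results of these data known. The gene lists by product could not be applied, since no table pairs identifiers with products. Linking, calls and intervals were tested on simulated data, in which genes shared no reads and neighbours outside planted runs never matched in structure. Such data cannot test how reads were divided between copies. Python 3.11.15, pandas 2.3.3 and scipy 1.17.1 were used.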

Additional observations from a re-analysis of the deposited data

How the results depend on the processing

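The counts of 7 higher and 4 lower among 301 measured members became 12 and 7 at a pseudocount of 0.1 and 3 and 2 at a pseudocount of 5. The shares over all annotated genes were not computed at these pseudocounts, so whether members moved more than other genes is not known. With lengths within 1% there were 444 members, and 4 of the 187 measured were higher and 3 lower. By the locus sum 1 of 345 measured members was lower. The median difference between linked copies was 3.45 at a pseudocount of 0.1, 1.09 at 5, 2.84 with the higher copy at a mean FPKM of at least 5 and 1.73 with both copies measured. The share at least 4-fold apart was 72.3%, 26.4%, 67.8% and 42.6% under the same settings, and 40.7% with lengths within 1%. The share of pairs with the same sign was 60.9% by the locus sum, an alternative chosen after the data were seen. Over all 54 alternatives to these counts, shares and medians, of which 4 were chosen after the data were seen, 37 stayed within set limits. The limits were 1.5 times the count, or an interval around the share or median. That interval treats linked pairs as independent and is not an interval of read counts. Pairs in a run share genes, so the number within the limits describes the settings and is no test of stability. Of 50 recomputed ratios of 10 named genes, 15 kept their direction but moved beyond their counting interval, 8 of them at a pseudocount of 5 and 4 by the locus sum. The ratio of the 5-exon gene on chromosome 15 changed direction, to 0.16 by the locus sum, whose construction adds an assembled transcript. With 1 library a treatment, no library could be left out. No paired analysis was possible because neither treatment was replicated.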
